A study of Mus musculus with 18 samples.

Results

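The 9 genes described here belong to corticotropin-releasing hormone (CRH) and glucocorticoid signalling: Crh, Crhbp, Crhr1, Hsd11b1, Nr3c1, Nr3c2, Fkbp5, Sgk1 and Tsc22d3. They were taken by symbol from a table of 43629 gene IDs. The choice drew on measured values, since Crhbp and Hsd11b1 were known to stand higher in Psmb8 than in mSc cultures when libraries were compared by replicate number. Every value of the 9 genes in that contrast, and in the contrast of Psmb8 with Psmb5 that uses the same Psmb8 libraries, is therefore a description with no test.

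The libraries came from mouse cortical neuronal cultures that received a lentivirus on day 7 in vitro and were harvested 10 days later. The 3 groups of 6 libraries overexpressed mScarlet, a red fluorescent protein that served as control (mSc), PSMB5, a catalytic subunit of the constitutive proteasome (Psmb5), or PSMB8, its interferon-inducible counterpart in the immunoproteasome (Psmb8). All 18 cultures were transduced, so none shows these genes without a virus. The treatment text of every sample names an Ifng construct, which differs from the treatment tags and the series' design text. The tags were used here. The labels do not name the promoter of the constructs, the age and strain of the mice or what a replicate number stands for. Nothing says that the libraries of a group are separate animals, so p-values cover the library-to-library spread, part of which may be technical.

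CRH is the peptide that starts the hormonal stress response in the hypothalamus, and in cortex it is made by a subset of GABAergic interneurons. It acts through CRHR1, a G protein-coupled receptor that raises cyclic AMP (cAMP), while CRH-binding protein (CRHBP), also found in interneurons, holds the peptide away from the receptor. Glucocorticoids enter cells and are regenerated from inert precursors by the enzyme 11-beta-hydroxysteroid dehydrogenase type 1 (HSD11B1). They bind the glucocorticoid receptor (NR3C1) and the mineralocorticoid receptor (NR3C2), which act on DNA as transcription factors. FKBP5, a co-chaperone that lowers the hormone affinity of the glucocorticoid receptor, SGK1, a kinase that regulates ion transport, and TSC22D3, the leucine zipper protein GILZ, are well-known products of genes these receptors induce.

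Promoter windows in RefSeq's table for GRCm38.p6 were searched for 7 of the 9 genes, with 14 windows in all. No window was found for Crh. Nr3c1 was left out of the search by choice, so nothing is said of its promoter. Each window ran from 250 bases before an annotated start to 50 after it. Both strands were searched for a full glucocorticoid response element (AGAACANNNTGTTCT), its half-site (AGAACA), a full cAMP response element (TGACGTCA) and its half-site (TGACG). A half-site inside a full element was also counted as a half-site. The 250 bases before the start are printed for 4 windows: those of Crhbp and Hsd11b1, the genes that stood apart in Psmb8 cultures, and those of the receptor targets Sgk1 and Tsc22d3 that held glucocorticoid motifs at the positions named below. Capitals mark the glucocorticoid and cAMP motifs. The Crhbp window lies at chr13:95444832-95445081 on the minus strand, that of Hsd11b1 at chr1:193242361-193242610 on the minus strand, that of Sgk1 at chr10:21993640-21993889 on the plus strand and that of Tsc22d3 at chrX:140600523-140600772 on the minus strand.
Crhbp: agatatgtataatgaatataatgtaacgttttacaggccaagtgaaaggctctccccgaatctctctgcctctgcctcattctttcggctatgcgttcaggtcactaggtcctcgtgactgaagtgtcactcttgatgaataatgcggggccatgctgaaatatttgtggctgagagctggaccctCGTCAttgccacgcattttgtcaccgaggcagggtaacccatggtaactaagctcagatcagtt
Hsd11b1: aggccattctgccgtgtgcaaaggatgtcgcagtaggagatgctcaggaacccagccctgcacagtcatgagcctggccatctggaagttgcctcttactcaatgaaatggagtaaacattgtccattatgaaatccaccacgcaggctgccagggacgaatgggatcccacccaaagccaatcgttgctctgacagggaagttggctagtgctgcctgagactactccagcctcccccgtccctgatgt
Sgk1: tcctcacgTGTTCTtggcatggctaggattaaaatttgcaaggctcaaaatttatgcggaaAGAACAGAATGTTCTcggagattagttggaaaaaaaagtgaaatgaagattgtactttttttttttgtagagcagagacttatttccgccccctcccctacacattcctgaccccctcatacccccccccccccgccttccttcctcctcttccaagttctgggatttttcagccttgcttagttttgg
Tsc22d3: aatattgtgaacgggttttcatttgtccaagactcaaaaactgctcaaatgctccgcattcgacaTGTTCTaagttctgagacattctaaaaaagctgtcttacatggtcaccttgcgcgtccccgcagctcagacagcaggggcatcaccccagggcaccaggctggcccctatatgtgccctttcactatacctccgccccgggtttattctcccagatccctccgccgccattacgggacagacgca

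Sgk1 had 6 windows and Tsc22d3 had 3, and the printed 1 of each was picked for its glucocorticoid motif. Sgk1 windows 1 and 4 by position held a glucocorticoid half-site, window 2 a cAMP half-site, and windows 3 and 6 none. Tsc22d3 window 2 held a cAMP half-site and window 1 none. The shares given here count single windows, so they do not apply to a gene with several. The printed Sgk1 window held the full element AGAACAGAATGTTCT from base -189, counted from that window's start. Letters matching the full element were found in 3 of the 32851 windows searched (0.00913%). The printed Tsc22d3 window held 1 half-site, TGTTCT at base -185, a motif present in 19.0% of the windows searched. The Crhbp window held 1 cAMP half-site, CGTCA at base -64, present in 20.8% of windows. None of the 4 motifs was found in the Hsd11b1 window, or in those of Crhr1, Nr3c2 and Fkbp5. In GENCODE's GRCm38 annotation Crhbp (ENSMUSG00000021680) spans chr13:95431371-95444924 and Hsd11b1 (ENSMUSG00000016194) chr1:193221634-193264075, both on the minus strand. The Crhbp window therefore covers the start of the annotated gene, but the window's own start and its cAMP half-site lie inside the gene. The Hsd11b1 window lies wholly inside its annotated gene. So does the printed Sgk1 window, in a gene at chr10:21882184-21999903, so its full element is not upstream of the gene. The printed Tsc22d3 window covers the start of its gene, chrX:140539528-140600659, and the window's own start lies inside that gene. These matches describe letters in short windows and were not tied to any value below.

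Library totals ranged from 15337511 to 21074229 counts, and all 9 genes passed the filter on low counts, which left 15671 genes. Levels are given as CPM, the read count of a gene scaled to library size after TMM normalisation. The labels were checked on the transgenes: Psmb5 was at 42.9 ± 1.49 CPM (SD, n = 6) in mSc and 451 ± 113 in Psmb5 cultures, and Psmb8 was at 6.28 ± 7.76 in mSc and 887 ± 198 in Psmb8 cultures. Neuronal marker sums were even, at 4226 to 5252 CPM over 8 pan-neuronal genes, so markers of the labelled cell type were present in every library. Of 11 microglia markers, 9 were too low to be tested. Libraries with the same replicate number resembled each other across groups: the 3 libraries numbered 1 held 4374 to 5214 CPM of 10 summed astrocyte markers against 1427 to 2031 in the other 15. The libraries numbered 3 and 6 held 101 to 176 and 304 to 488 CPM of 11 summed interferon-stimulated genes, against at most 37.0 elsewhere. These libraries stand apart, so some results of the 9 genes are also given without them. Fewer cells of a type and less RNA per cell cannot be told apart in such bulk libraries.

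The 9 genes spanned about a 20-fold range of level per length. Crhr1 was the most abundant, at 20.6 ± 7.69 CPM per kilobase of exon (SD, n = 18), followed by Crhbp at 8.55 ± 4.95, Nr3c1 at 5.71 ± 0.657, Sgk1 at 4.01 ± 0.916 and Tsc22d3 at 3.89 ± 1.36. Fkbp5 was at 2.55 ± 0.339 CPM per kilobase, Crh at 2.23 ± 0.876, Nr3c2 at 1.72 ± 0.275 and Hsd11b1 lowest at 1.01 ± 0.281. The RNA of Nr3c1 thus stood above that of Nr3c2 in level per length, and the RNA of Crhr1 and Crhbp above that of Crh. These are levels of RNA, not of protein or peptide. Some neighbours in this order were separated in nearly every library: Crhr1 was above Crhbp in 16 of 18, Nr3c1 above Sgk1 in 17, Tsc22d3 above Fkbp5 in 16 and Nr3c2 above Hsd11b1 in 18. Others were not, with Crhbp above Nr3c1 in 11 of 18, Sgk1 above Tsc22d3 in 9, Fkbp5 above Crh in 12 and Crh above Nr3c2 in 14.

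**Figure D1:**
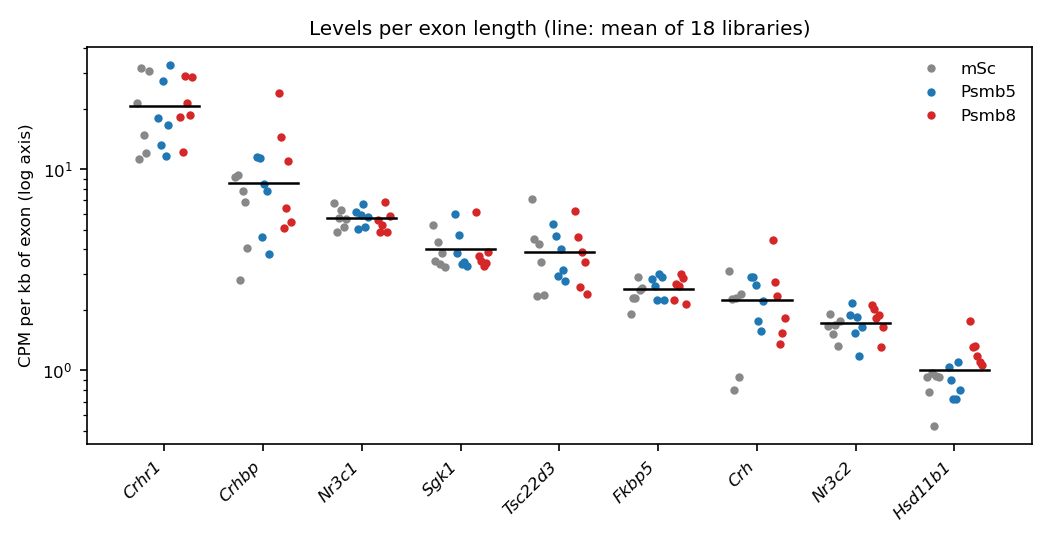
Level of each gene per kilobase of exon (CPM per kb, logarithmic axis) in each of the 18 libraries, coloured by group, with a line at the mean. Crhr1 lies highest at a mean of 20.6 and Hsd11b1 lowest at 1.01, and the Crhbp points spread more widely than those of Nr3c1 or Fkbp5.

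The main pattern in Psmb8 cultures was a higher level of Crhbp and Hsd11b1, with the CRH receptor, both steroid receptors and the 3 receptor targets close to control. Crhbp was at a lowest, median and highest level of 5.07, 13.2 and 16.9 CPM in mSc, 6.80, 14.6 and 20.8 in Psmb5 and 9.19, 15.6 and 43.0 in Psmb8 libraries. The groups overlapped widely, and the libraries numbered 3 and 6 were the lowest of every group. Within numbers, Crhbp stood higher in Psmb8 than in mSc in 5 of 6 pairs, by 1.38, 0.62, 0.84, 0.67 and 0.43 on the log2 scale for numbers 1, 2, 3, 5 and 6, and it differed by -0.28 for number 4. Its group means were 12.03 ± 4.87 CPM in mSc and 19.9 ± 13.1 in Psmb8 (SD, n = 6 each). The fitted log2 fold change was 0.73 (SE 0.39) and, with the replicate number as a block, 0.65 (SE 0.14), a 1.57-fold difference. Pair 1 carried much of the size: with number 1 left out, the blocked value was 0.46.

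Hsd11b1 was a low gene, with 38 to 124 counts in a library, where counting error alone is 8.98% to 16.2%. Its lowest, median and highest levels were 2.24, 3.95 and 4.12 CPM in mSc, 3.06, 3.61 and 4.70 in Psmb5 and 4.53, 5.30 and 7.53 in Psmb8 libraries. All 6 Psmb8 libraries lay above all 6 mSc libraries, a separation that 0.0702% of tested genes showed in this direction. The gene was chosen on this contrast, so nothing is read from that share. It was higher in all 6 same-numbered pairs, by 0.91, 0.74, 0.44, 1.12, 0.22 and 0.19 on the log2 scale for numbers 1 to 6. The largest pair difference, at number 4, rests on the lowest of the mSc values. The fitted log2 fold change was 0.61 (SE 0.17), and 0.60 (SE 0.13) with the block, from 3.59 ± 0.721 CPM in mSc to 5.49 ± 1.09 in Psmb8 (SD, n = 6 each), a 1.52-fold difference.

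**Figure D2:**
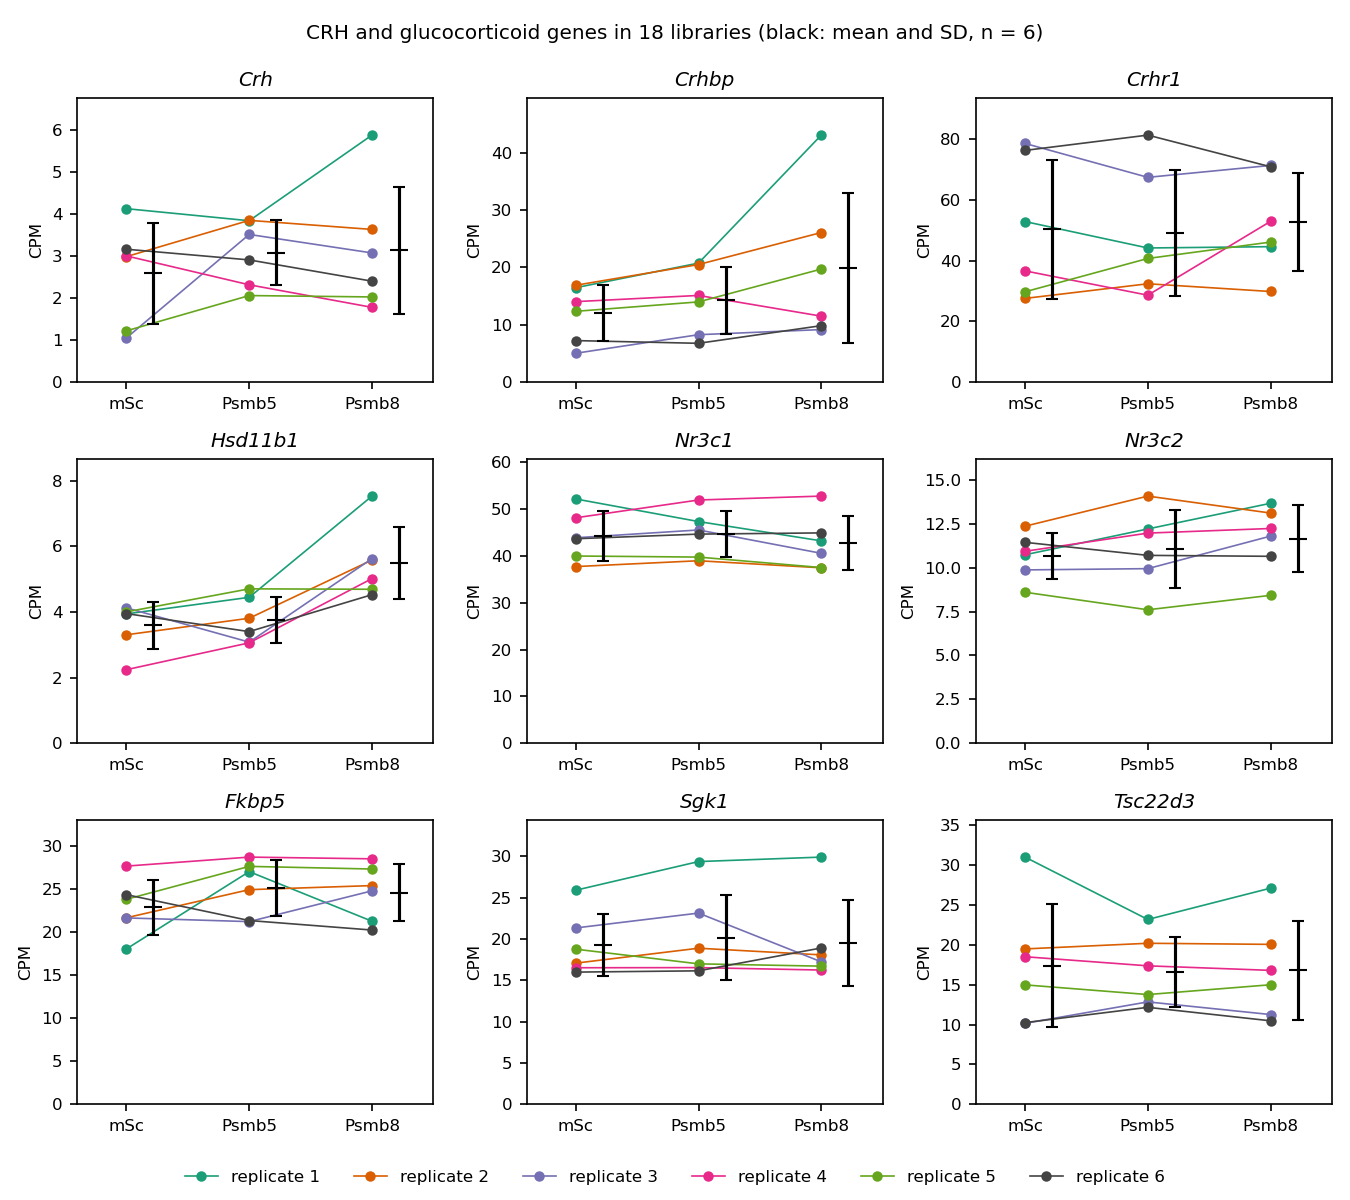
Level of each gene (CPM, vertical axis) in each library by group (horizontal axis), with same-numbered libraries joined in 1 colour and black bars for the mean and SD of 6 libraries. Hsd11b1 is the gene whose 6 Psmb8 points (4.53 to 7.53 CPM) lie above every mSc point (2.24 to 4.12 CPM); in the other panels the groups overlap.

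When each replicate number was left out in turn, the blocked log2 fold changes in Psmb8 against mSc lay between 0.46 and 0.83 for Crhbp and between 0.51 and 0.68 for Hsd11b1. Without the interferon-high numbers 3 and 6 they were 0.66 for Crhbp and 0.75 for Hsd11b1. In that fit Crhr1 was at 0.26 (SE 0.14), Crh at 0.21 (SE 0.22) and Fkbp5 at 0.17 (SE 0.08). The rest lay between -0.08 for Tsc22d3 and 0.14 for Nr3c2. The members were chosen on this contrast, so no threshold is applied to them here.

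Because Crhbp is an interneuron gene, markers of GABAergic neurons were placed beside it. Of 18 tested inhibitory neuron markers, 15 had blocked log2 fold changes above 0 in Psmb8 against mSc, with a median of 0.12 beside 0.00 over all genes, and none passed edgeR's test; DESeq2 with the block called Vip. With the block 7 of the 18 were under an unadjusted p of 0.05, beside 10.7% of all genes, and among these 7 the subclass genes Vip, Sst, Npy, Dlx5 and Lhx6 were at 0.44, 0.40, 0.38, 0.36 and 0.26. Gad1 and Gad2 made up the rest of the 7. These genes were picked by their p in this same contrast, so nothing is read from their distance to Crhbp, at 0.65. The list's mean log2 level differed by 0.41, 0.14, 0.25, -0.07, 0.03 and 0.19 in pairs 1 to 6, so pair 4 was the pair below 0 for these markers as for Crhbp. Their summed level was 1067 to 2052 CPM in mSc, 1108 to 1862 in Psmb5 and 1226 to 2410 in Psmb8 libraries. Minus the mean of all 18 markers within each pair, the Crhbp difference was 0.45 ± 0.40 on the log2 scale (SD, n = 6 pairs, above 0 in 5) and that of Hsd11b1 0.45 ± 0.43 (above 0 in 6). The interferon-stimulated genes also differed, with a mean pair difference of -0.36 ± 0.37 over 11 genes, of which Gbp2 passed edgeR's blocked test. This was not particular to Psmb8 cultures. The list differed by -0.31 ± 0.29 in Psmb5 against mSc and by -0.05 ± 0.29 in Psmb8 against Psmb5. The values that follow are again for Psmb8 against mSc. Astrocyte markers differed by -0.05 ± 0.17 and excitatory neuron markers by -0.01 ± 0.08. Oligodendrocyte lineage markers differed by -0.11 ± 0.33, with all 8 tested genes below 0 in the blocked fit. The 2 tested microglia markers differed by -0.18 ± 0.20 and vascular and fibroblast markers by 0.14 ± 0.30. The 12 excitatory markers went both ways: 5 were under an unadjusted p of 0.05 with the block, and DESeq2 with the block called Nrgn and Camk2a, at -0.18 and -0.16 in edgeR's blocked fit. The part of these markers in the 2 differences was not tested.

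The other 7 genes differed less between Psmb8 and mSc cultures. Crh, the peptide gene, had a lowest, median and highest level of 1.06, 3.003 and 4.14 CPM in mSc, 2.07, 3.22 and 3.86 in Psmb5 and 1.79, 2.75 and 5.89 in Psmb8 libraries. It was the sparsest member, with 19 to 97 counts in a library and counting error of up to 22.9%. Its blocked log2 fold change was 0.27 (SE 0.21), with 4 of 6 pairs higher. It was 0.09 without number 3 and 0.45 without number 4. Crhr1 had values of 27.6, 44.7 and 78.4 CPM in mSc, 28.6, 42.4 and 81.2 in Psmb5 and 29.8, 49.5 and 71.2 in Psmb8 libraries. The ranges of the 3 groups all but coincided, and its blocked difference between Psmb8 and mSc was 0.12 (SE 0.11).

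The steroid receptors showed no separation of the groups. Nr3c1 lay between 37.7 and 52.1 CPM in mSc (median 43.7), between 38.9 and 51.9 in Psmb5 (median 45.04) and between 37.4 and 52.7 in Psmb8 libraries (median 41.8). Nr3c2 lay between 8.60 and 12.4 CPM in mSc (median 10.8), between 7.60 and 14.1 in Psmb5 (median 11.3) and between 8.42 and 13.7 in Psmb8 libraries (median 12.01). In Psmb8 against mSc the blocked log2 fold changes were -0.05 (SE 0.05) for Nr3c1 and 0.12 (SE 0.07) for Nr3c2. Exons of Nr3c2 overlap Gm10649 on the opposite strand, which had 91 counts over all libraries, so a few reads of the pair could be shared.

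The 3 receptor targets gave no common direction. Fkbp5 lay between 18.03 and 27.6 CPM in mSc (median 22.7), between 21.2 and 28.7 in Psmb5 (median 25.9) and between 20.2 and 28.5 in Psmb8 libraries (median 25.1). Sgk1 lay between 16.0 and 25.9 CPM in mSc (median 17.9), between 16.2 and 29.4 in Psmb5 (median 17.95) and between 16.3 and 29.9 in Psmb8 libraries (median 17.7). Tsc22d3 lay between 10.1 and 31.0 CPM in mSc (median 16.7), between 12.2 and 23.1 in Psmb5 (median 15.5) and between 10.5 and 27.1 in Psmb8 libraries (median 15.9). For Sgk1 and Tsc22d3 the library numbered 1 was the highest of each group. The blocked log2 fold changes in Psmb8 against mSc were 0.10 (SE 0.08) for Fkbp5, 0.01 (SE 0.07) for Sgk1 and -0.03 (SE 0.08) for Tsc22d3.

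**Figure D3:**
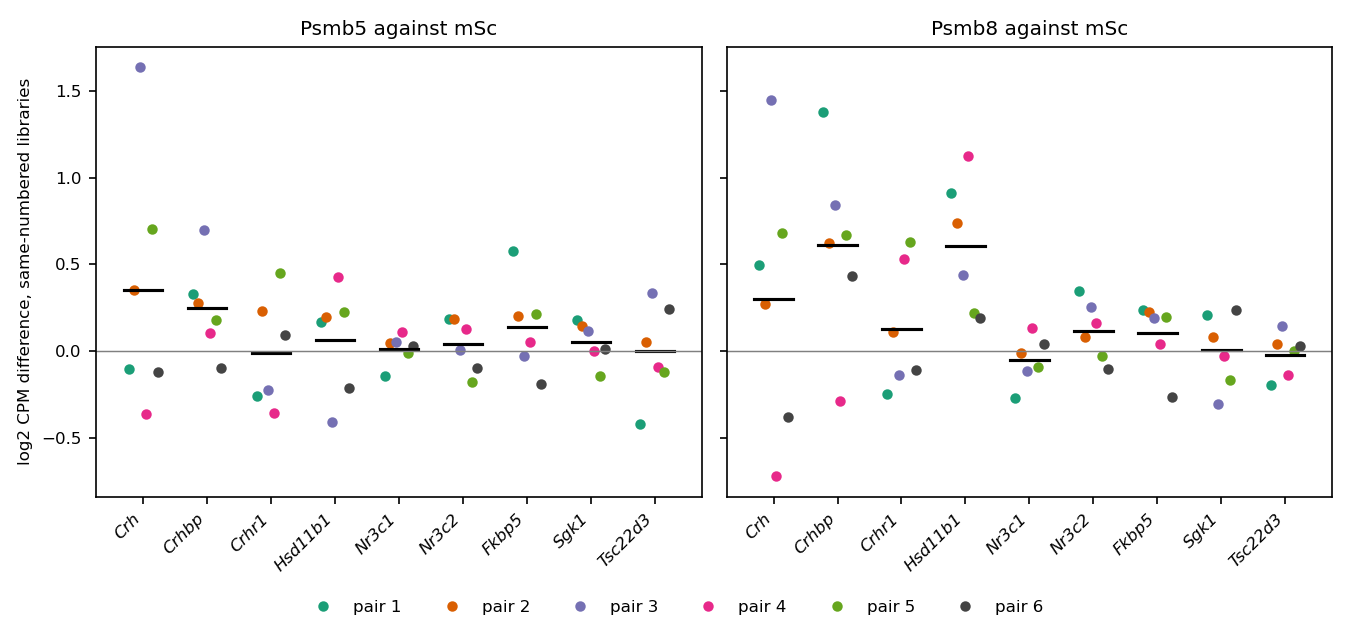
Difference in log2 CPM between same-numbered libraries (vertical axis) for each gene, with Psmb5 against mSc on the left and Psmb8 against mSc on the right; points are the 6 pairs by colour and black lines their means. On the right all 6 Hsd11b1 points and 5 of 6 Crhbp points lie above 0, while points of Nr3c1, Nr3c2, Sgk1 and Tsc22d3 lie close to or on both sides of 0.

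Overexpression of the constitutive subunit left no detectable difference in these genes. In Psmb5 against mSc, 0 of 9 genes passed the adjusted threshold in edgeR's quasi-likelihood test with or without the block, where 0.00638% of all genes passed. Under an unadjusted p of 0.05 there were also 0 of 9, beside 0.944% of all genes without and 6.87% with the block. DESeq2 called 0 of 9 with and without the block. The mSc libraries are those that the choice of members used. Crhbp had a blocked log2 fold change of 0.24 (SE 0.14), with 5 of 6 pairs higher and an edgeR adjusted p of 0.795. For Hsd11b1 it was 0.06 (SE 0.14), with 4 of 6 pairs higher and an edgeR adjusted p of 0.959. Crh was at 0.28 (SE 0.21), with 3 of 6 pairs higher, and at 0.07 without number 3, whose pair differed by 1.63. The lowest edgeR adjusted p of the 9 was that of Fkbp5, 0.766, at a log2 fold change of 0.14 (SE 0.07). The other 5 lay between -0.03 for Tsc22d3 and 0.05 for Sgk1. Some values moved in the blocked fit without numbers 3 and 6. There Fkbp5 was at 0.25 (SE 0.08), Hsd11b1 at 0.24 (SE 0.16), Crh at 0.12 (SE 0.22) and Tsc22d3 at -0.16 (SE 0.08). The lowest edgeR adjusted p of the 9 in that fit was 0.746, for Fkbp5.

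Set against Psmb5 cultures, Psmb8 cultures again had more Crhbp and Hsd11b1. Crhbp stood higher in 5 of 6 pairs, at a blocked log2 difference of 0.42 (SE 0.14), at 0.24 with number 1 left out and at 0.56 with number 4 left out. Hsd11b1 stood higher in 5 of 6 pairs, at 0.54 (SE 0.13). The other 7 genes lay between -0.07 for Nr3c1 and 0.13 for Crhr1, with Crh at -0.01 and higher in 1 of 6 pairs. Over all genes, 0.0128% passed the adjusted threshold in this contrast without the block and 0.0383% with it. It shares the Psmb8 libraries with the contrast against mSc.

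The wider pathway was described from 5 lists chosen by function. No tested gene of any list passed the adjusted threshold in edgeR's test in any of the 3 comparisons, with or without the block. Of all genes, 0.00638% passed in Psmb8 against mSc without the block and 0.325% with it. Beside Psmb8 against mSc, where 10.7% of all genes were under an unadjusted p of 0.05 with the block, the count was 2 of 10 for the CRH family and related stress peptides, 6 of 19 for cAMP and CREB signalling, 1 of 7 for steroid metabolism and transport, 1 of 21 for receptor chaperones and co-regulators and 6 of 27 for glucocorticoid-responsive genes. In Psmb5 against mSc, beside 6.87% of all genes, these counts were 1, 4, 0, 1 and 4, and in Psmb8 against Psmb5, beside 7.64%, they were 0, 2, 0, 0 and 3. Without the block the counts were 1, 2, 0, 1 and 1 in Psmb8 against mSc (2.17% of all genes), 1, 0, 0, 0 and 0 in Psmb5 against mSc (0.944%), and 0 for all 5 lists in Psmb8 against Psmb5 (1.33%). DESeq2 with the block called 2 cAMP genes in Psmb8 against mSc, Prkar2a and Adcy5, and 2 glucocorticoid-responsive genes in Psmb8 against Psmb5, Mt1 and Mt2. In edgeR's blocked fit these were at 0.24 for Prkar2a, a regulatory subunit of protein kinase A, -0.18 for Adcy5, an adenylyl cyclase, and -0.27 and -0.29 for the metallothioneins Mt1 and Mt2.

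In each list and comparison the gene with the smallest p in the fit without the block is given here, none of them past the threshold. In Psmb8 against mSc these were Vipr1, a receptor for vasoactive intestinal peptide, at a log2 fold change of -0.16, Crtc1, a CREB co-activator, at -0.11, and Tspo, a mitochondrial protein used in steroid synthesis, at -0.42. Ptges3, the receptor co-chaperone p23, was at 0.17 and Bcl6, a transcriptional repressor, at -0.21. The glucocorticoid-responsive list had a blocked median of -0.06, with 18 of 27 genes below 0, beside 0.00 over all genes. In Psmb5 against mSc the genes were Vipr1 at -0.16, Adcy5 at -0.16, Srd5a1 at -0.10, St13 at 0.08 and Zbtb16 at 0.13, and in Psmb8 against Psmb5 they were Vipr2 at 0.15, Adcy2 at 0.14, Star at -0.16, Nrip1 at -0.08 and Bcl6 at -0.12. Apart from Tspo, which was at 1.56 CPM, these differences were at most 0.21 in size.

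**Figure D4:**
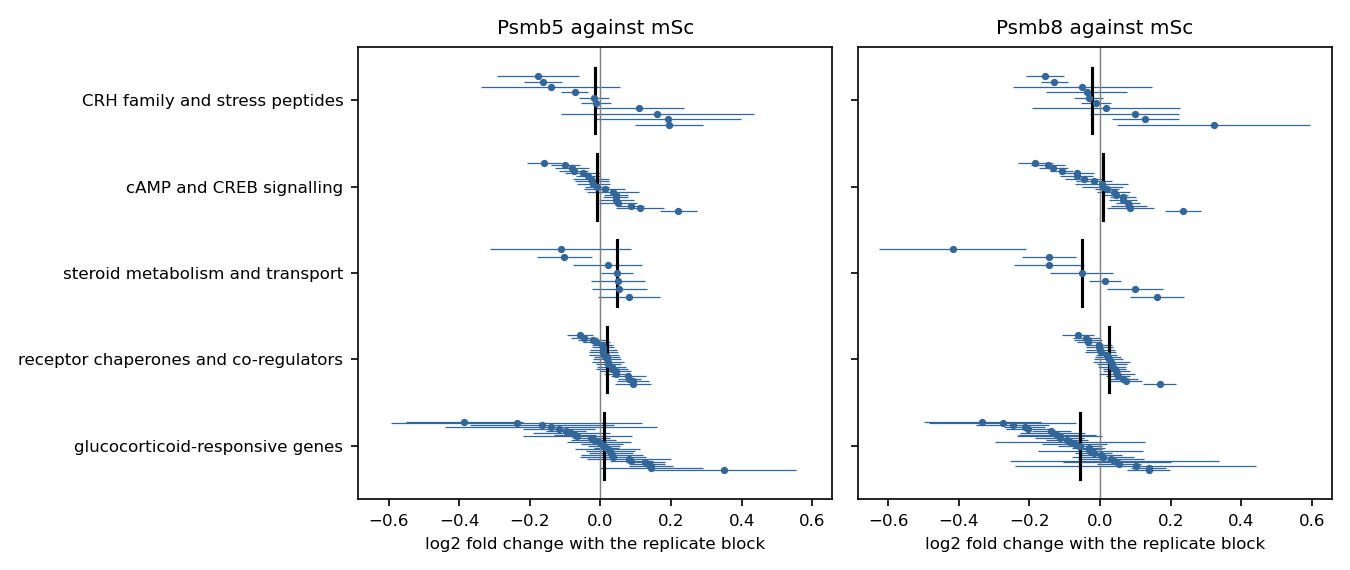
Blocked log2 fold change (horizontal axis) of every tested gene in the 5 pathway lists, for Psmb5 against mSc on the left and Psmb8 against mSc on the right, with bars for the standard error and a black line at each list's median. Points of each list lie on both sides of 0, and the glucocorticoid-responsive list in Psmb8 against mSc has its median at -0.06.

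For every member but Hsd11b1 more of the variation in log2 CPM lay between replicate numbers than between groups. Hsd11b1 was chosen on its difference between groups, so nothing is read from this exception. A test of all number terms together, which the choice of members did not use, called 8 of 9 genes, where 64.3% of all genes were called, so this share of members is not far from the background. Tsc22d3 had the strongest signal (edgeR adjusted p = 9.06e-09, rank 364 of 15671 by F statistic), and 94.8% of its variation in log2 CPM lay between numbers, beside a median of 66.03% over all genes. It was at 27.1 ± 3.90 CPM in the libraries numbered 1 and at 11.4 ± 1.35 and 10.95 ± 1.05 in those numbered 3 and 6 (SD, n = 3 each). Sgk1 (edgeR adjusted p = 3.46e-06) was also highest in number 1, at 28.4 ± 2.18 CPM, and at 16.4 to 20.6 in the means of the other numbers. With number 1 left out, the edgeR adjusted p of Sgk1 was 0.0761, so its call rests on those libraries. They are the ones with high astrocyte markers. Their mean sums of inhibitory neuron, excitatory neuron and vascular and fibroblast markers were also the highest of the 6 numbers. The part of any of these markers was not tested.

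Crhbp and Crhr1 stood at opposite ends of their ranges in numbers 3 and 6. Crhbp (edgeR adjusted p = 4.26e-07) was highest in number 1, at 26.8 ± 14.3 CPM, and lowest in numbers 3 and 6, at 7.52 ± 2.17 and 7.99 ± 1.65 (SD, n = 3 each). Crhr1 (edgeR adjusted p = 3.80e-07) was highest in numbers 3 and 6, at 72.3 ± 5.64 and 76.0 ± 5.20 CPM, and lowest in number 2, at 29.93 ± 2.404. Among the other 4 numbers, number 1 was the highest for both genes, with Crhr1 at 47.2 ± 4.89 CPM. The 18 summed inhibitory neuron markers were highest in numbers 1 and 2, at means of 2108 and 1593 CPM, and at 1188 and 1134 in numbers 3 and 6. Number 1 is also the number with high astrocyte markers. Numbers 3 and 6 are the libraries with high interferon-stimulated genes. They also held 235 to 435 CPM of 8 summed oligodendrocyte lineage markers, against 558 to 1094 in the others. The part of these markers in the difference was not tested. Without numbers 3 and 6 both genes still differed between the remaining 4 numbers (edgeR adjusted p = 0.00398 for Crhbp and 0.0210 for Crhr1), where 51.5% of genes did.

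The receptors followed a different order. Nr3c1 (edgeR adjusted p = 5.77e-05) was highest in number 4, at 50.9 ± 2.47 CPM, and lowest in numbers 2 and 5, at 38 ± 0.803 and 39.0 ± 1.36 (SD, n = 3 each). Nr3c2 (edgeR adjusted p = 2.27e-04) was highest in number 2, at 13.2 ± 0.859 CPM, and lowest in number 5, at 8.20 ± 0.532, and its adjusted p was 0.0666 with number 5 left out. The numbers that held least Nr3c1 therefore included the number that held most Nr3c2. Crh (edgeR adjusted p = 0.00521) was highest in number 1, at 4.62 ± 1.10 CPM, and lowest in number 5, at 1.78 ± 0.476, with an adjusted p of 0.0665 without number 1. Fkbp5 (edgeR adjusted p = 0.0201) was highest in number 4, at 28.3 ± 0.554 CPM, and its adjusted p was 0.183 without that number.

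Hsd11b1 was the member that did not pass between numbers (edgeR adjusted p = 0.102, and 0.235 by DESeq2's likelihood ratio test). Its number means lay between 3.44 and 5.30 CPM, and 25.4% of its variation lay between numbers. The share between groups was 52.2%. That share draws on the contrast used to choose the gene, and it lowers what is left for numbers. The call also turned on which libraries entered, since the edgeR adjusted p was 0.0498 without numbers 3 and 6.

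**Figure D5:**
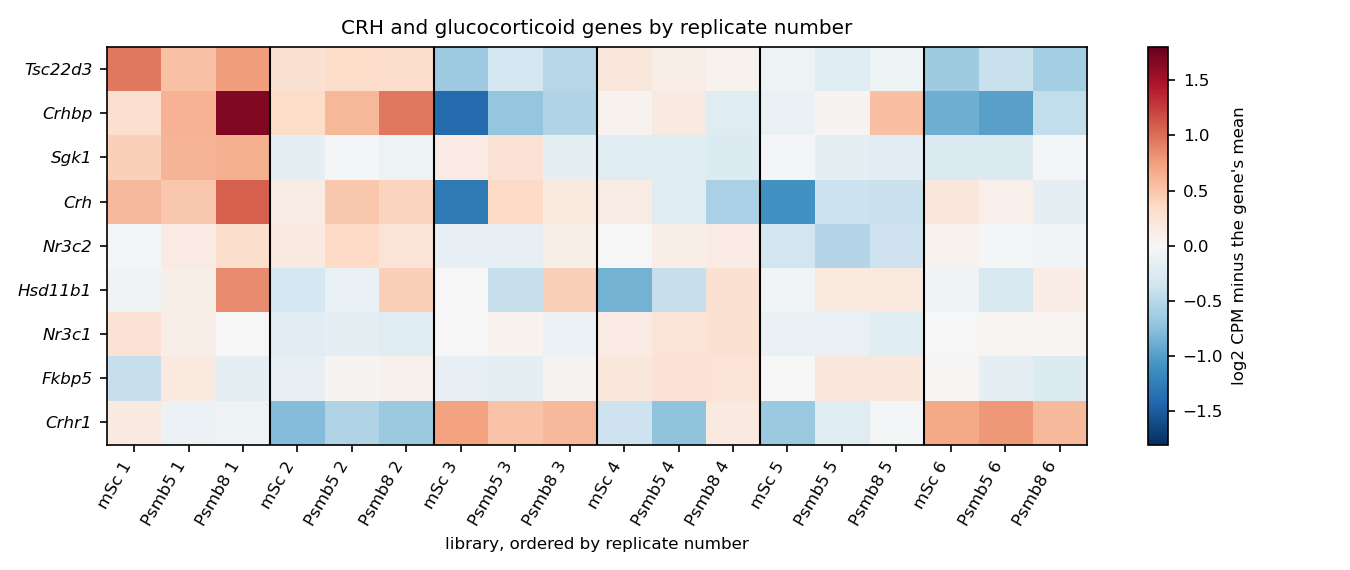
Deviation of each library's log2 CPM from the gene's mean over 18 libraries (colour scale), with genes in lines and libraries in columns ordered by replicate number. Tsc22d3 and Crhbp are high in number 1 and low in numbers 3 and 6, Crhr1 is high in numbers 3 and 6, and Hsd11b1 shows no block of one colour.

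Most tested genes of the pathway lists also differed between numbers: 8 of 10 in the CRH family, 14 of 19 in cAMP signalling, 6 of 7 in steroid metabolism, 17 of 21 chaperones and co-regulators and 22 of 27 glucocorticoid-responsive genes, beside 64.3% of all genes. Fam107a, a glucocorticoid-responsive gene that is strong in astrocytes, was at 37.3 CPM in number 1 and at 4.75 to 6.35 in the others. Adcyap1r1, the receptor of the peptide PACAP, was at 347 CPM in number 1 and at 189 to 238 in the others. Both follow the libraries numbered 1, with 4374 to 5214 CPM of astrocyte markers. Number 1 also had the highest mean sums of inhibitory neuron (2108 CPM), excitatory neuron (3070) and vascular and fibroblast markers (45.9). The part of any of these markers was not tested. Other genes were highest elsewhere. Dusp1, next by F statistic among the glucocorticoid-responsive genes, was at 76.8 and 68.3 CPM in numbers 3 and 6 and 53.8 in number 1. Adcy8, with the largest F of the cAMP list, was at 163 and 169 CPM in numbers 3 and 6 and 124 in number 1. Abcb1b and Ncoa3, with the largest F of the steroid and chaperone lists, were highest in number 5, at 9.85 and 53.9 CPM.

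The genes most like each member over the 18 libraries are given as a description, since all libraries share the differences between numbers. Crhbp was most like Rcan2 (Pearson r of log2 CPM = 0.96, n = 18 libraries) and Ubash3b (0.95). Crhr1 was most like Mark1 (0.96), Tsc22d3 like Hlf (0.95) and Phyh (0.95), Nr3c1 like Myo10 (0.92), and Sgk1 like Reln (0.91). Nr3c2 was most like Tomm20 (0.87) and Vip (0.87), Fkbp5 like Slc25a13 (0.84), Crh like Cxcl14 (0.81) and Hsd11b1 like Tmem65 (0.79). Among the members themselves, Crhbp went with Tsc22d3 (0.82) and against Crhr1 (-0.68). Vip, Reln and Cxcl14 are genes of interneuron classes, and Hlf is a transcription factor of the clock-output family.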

How the data were processed

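Poly(A)-enriched RNA of 18 libraries in 3 groups of 6 was measured, per the labels' protocols. The authors deposited raw read counts per Ensembl gene; STAR 2.4, DESeq2, GRCm39 and mm10 appear in the submitters' processing notes with no role; the read counter and its use of strand were not given in the sources used here. Of 43629 IDs, 42462 had a symbol. Exon lengths and overlaps came from GENCODE's GRCm38 annotation, which may differ from the build of the counts.

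The test was run in edgeR 4.0.16 under R 4.3.3 (filterByExpr by group, TMM scaling, quasi-likelihood test, 1 fit of all 18 libraries with group as factor, Benjamini-Hochberg adjustment over 15671 genes, threshold 0.05). Standard errors were derived from the F statistic. The lowest share of a library's counts in tested genes was 99.88%. Log2 CPM used a prior count of 2. The labels give the groups the same replicate numbers, so deviations from group means were checked. All 18 same-numbered pairs correlated, at r from 0.447 to 0.729 (mean 0.603). The 90 other pairs ran from -0.535 to 0.648, so the 2 ranges overlapped. Their mean of -0.119 follows from centring each group and is no separate evidence of pairing. The numbers were taken to pair the libraries, and blocked values are given; the coefficient of biological variation was 17.9% without and 5.94% with the block. No pair of libraries within a group was identical within sampling noise (chi-square per degree of freedom 2.80 to 35.3 over 45 pairs).

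The members and gene lists were chosen with earlier results of these data known. The genes named are the 9 members, both transgenes, the genes of each list past the threshold with the largest changes or, where none passed, the one with the smallest p (by F between numbers), marker sums, and up to 5 look-alikes at a mean of 1 CPM or more. DESeq2 1.42.0, other filters, and libraries or numbers left out were alternatives. The test code was checked on simulated counts.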

Additional observations from a re-analysis of the deposited data

Results flagged for a closer look

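Of 51 groups of 6 libraries examined for a single library far from the others, 6 held one. By chance the rule flags about 1 in 20 independent groups. The 51 are not independent, since same-numbered libraries resemble each other across groups, so nothing is read from this count. For Hsd11b1 in mSc, replicate 4 lay below the rest, with a gap of 0.634 of the group's range. This library gives the largest of the Hsd11b1 pair differences. For Sgk1 in Psmb8, replicate 1 lay above the rest, with a gap of 0.751 of the range. The astrocyte markers were high in replicate 1 of every group, with gaps of 0.756 in mSc, 0.663 in Psmb5 and 0.720 in Psmb8. The vascular and fibroblast markers were high in Psmb8 replicate 1, with a gap of 0.657. The libraries numbered 1 also had the highest Sgk1 and Tsc22d3 of their groups.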

How the results depend on the processing

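Counts of genes called over the whole table moved with the replicate block and with the tool. Psmb8 against mSc gave 1 gene without and 51 with the block, Psmb8 against Psmb5 gave 2 and 6, and Psmb5 against mSc gave 1 in both. In Psmb5 against mSc the block changed the call of none of the 9 members. DESeq2 called 2 genes in Psmb8 against mSc, and with the block 13, 134 and 27 in Psmb5 against mSc, Psmb8 against mSc and Psmb8 against Psmb5. With the block and each replicate number left out in turn, Psmb8 against mSc gave 57, 19, 9, 59, 41 and 19 genes without numbers 1 to 6, Psmb8 against Psmb5 gave 4, 4, 4, 20, 5 and 4, and Psmb5 against mSc gave 1 to 3. With the block and without numbers 3 and 6, an alternative chosen after seeing the data, they were 2, 2 and 4. Without single libraries and without the block, Psmb8 against mSc gave 1 to 2, with 2 in the fit without Psmb8 replicate 5. The cause of these shifts was not tested, and fewer libraries entered the fits that left some out.

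Over 27 alternatives the log2 fold change of Crhbp in Psmb8 against mSc ranged from 0.35 to 0.88, and over 26 that of Hsd11b1 from 0.50 to 0.75. Tsc22d3 in the same contrast was 0.19 without mSc replicate 1 and -0.24 without Psmb8 replicate 1. A filter at a mean of 5 CPM removed Crh and Hsd11b1, so it gave them no value. Depth limits Crh and Hsd11b1 most.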

Other observations

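Several neighbours of the pathway were at or near the limit of detection. Hsd11b2, the enzyme that inactivates glucocorticoids, had 21 counts over all 18 libraries beside 1370 for Hsd11b1. The CRH-related peptides Ucn, Ucn2 and Ucn3 had 34, 57 and 3 counts, and Avp, the vasopressin gene, had 2. Cyp11b1, which makes corticosterone in the adrenal gland, had 0. Crhr2, the other CRH receptor, was detected with 2441 counts.

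The ratio of Nr3c1 to Nr3c2 per kilobase of exon was 2.57 to 4.09 in mSc (median 3.72), 2.33 to 4.40 in Psmb5 (median 3.58) and 2.41 to 3.75 in Psmb8 libraries (median 3.22). The ratio of Crhbp to Crh was 1.68 to 7.39 in mSc (median 3.47), 1.71 to 4.97 in Psmb5 (median 3.93) and 2.19 to 7.11 in Psmb8 libraries (median 4.99). The groups overlapped in both ratios.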
